A study of Mus musculus with 41 samples.

Results

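The NKG2D ligand genes Raet1e, Raet1d, Ulbp1, H60b, and H60c were followed in RNA sequencing data of mouse mesothelioma. They are 5 of 27197 genes in the count table, chosen by name because Raet1e was near absent from cell lines that lack Bap1. Levels in BNC against NC lines are therefore given as a description, without a test. All 5 passed the filter on low counts, some only through the libraries in which they are high.

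NKG2D is an activating receptor of natural killer (NK) cells and some T cells. Its ligands are distant relatives of MHC class I molecules that healthy cells display little and that stress, DNA damage, proliferation signals, or transformation can induce. Raet1e and Raet1d encode RAE-1 proteins held in the membrane by a glycolipid anchor, Ulbp1 encodes the transmembrane ligand MULT1, and H60b and H60c encode members of the H60 family. The RAE-1 and H60 families differ between mouse strains in which genes are present.

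There were 6 lines from tumors induced by intrathoracic adenoviral Cre, which a CMV promoter drives in whichever cells the virus enters. The 3 BNC lines (JB81, JB91, and JB97) have the genotype Bap1-/-;Nf2-/-;Cdkn2ab-/-, and the 3 NC lines (JB84, JB87, and JB93) carry the same losses of Nf2 and Cdkn2ab but not that of Bap1. The mice had a mixed background of FVB, Bl6, and 129Ola, and the strain origin of each line was not tested. The 9 other RNA libraries were bulk tumors of either genotype, whose columns could not be matched to one, and 14 tumor libraries were profiled as DNA. Total counts were 12377675 to 23936922 in lines and 8158740 to 21851974 in tumors.

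The lines were not equally distinct. JB81 and JB91 differed by a biological coefficient of variation of 0.0386 and JB84 and JB93 by 0.0578, against 0.455 to 0.787 between other lines, so the effective number of lines may be below 3 per genotype. Bap1 RNA was 39.5 ± 2.32 counts relative to library size (CPM) in BNC and 58.1 ± 1.96 in NC lines (SD, n = 3), with no overlap, while Cdkn2a had at most 12 counts and Cdkn2b at most 1 in any line. Nf2 RNA was 82.4 to 119.2 CPM in all 6, so its RNA did not mark the deletion. Of 8 mesothelial markers Wt1 was present in every line, at 72.1 to 123 CPM, but most others were near absent from a pair of BNC lines. In JB81 and JB91 Msln, Pdpn, Krt8, Krt18, and Krt19 were at 0.785 CPM or less and Upk3b at 2.31 and 2.32, against 55.3 to 2017 CPM for these 6 genes in the NC lines. JB97 lay between for the keratins, with Krt18 at 0.951 CPM, Krt8 at 7.21, and Krt19 at 83.3. Vim was at 4307 to 12057 CPM in BNC and 1221 to 4251 in NC lines. Apart from Wt1 and Vim, these markers did not bear out the labelled mesothelial origin in JB81 and JB91.

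Raet1e, H60b, and Raet1d lie in 1 cluster on chromosome 10 of GRCm38. Raet1e is annotated on the plus strand at chr10:22158569-22374139, H60b at chr10:22158586-22288849, and Raet1d at chr10:22360552-22374139. Raet1e shares 133 exon bases with the first exon of H60b and 363 with the last exon of Raet1d. Reads in these exons cannot be assigned to 1 gene, which left 1663 of 2159 exon bases to Raet1e alone. Ulbp1, at chr10:7440362-7473638, and H60c, at chr10:3256208-3267771, lie apart on the minus strand and share no exon with another gene.

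Raet1e and Raet1d are also near copies in sequence. Of 741 aligned coding bases 710 (95.8%) were the same, against 62.6% to 68.8% between the other pairs except H60b and H60c (83.9%). The windows upstream of their annotated starts in RefSeq are shown because they differ by so little. These are 250 bases of GRCm38.p6 from RefSeq, plus strand, with the 3 mismatches among 248 aligned bases in capitals.
Raet1e, chr10:22173247-22173496: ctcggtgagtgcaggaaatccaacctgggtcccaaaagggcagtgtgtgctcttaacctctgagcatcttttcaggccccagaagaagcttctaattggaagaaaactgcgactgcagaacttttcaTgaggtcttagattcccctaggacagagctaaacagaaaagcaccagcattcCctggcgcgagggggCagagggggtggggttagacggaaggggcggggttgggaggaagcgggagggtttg
Raet1d, chr10:22361644-22361893: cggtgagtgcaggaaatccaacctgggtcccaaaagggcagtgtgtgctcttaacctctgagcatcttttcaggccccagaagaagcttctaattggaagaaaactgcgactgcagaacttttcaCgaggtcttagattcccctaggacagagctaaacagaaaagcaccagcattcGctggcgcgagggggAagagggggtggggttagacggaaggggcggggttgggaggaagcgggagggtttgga
Each window held a GAANNTTC match, the core of a heat shock element, which 6.69% of 32851 mouse promoter windows had on either strand. Each also held GGGCGG, a GC box, as did 32.7% of all windows. A second Raet1e window at chr10:22158319-22158568 held GGGCGG only. No window of Raet1e, Raet1d, Ulbp1, or H60c held the TATA box TATAAA, the E2F motif TTTCGCGC or its variant TTTGGCGC, the AP-1 motif TGACTCA, the E-box CACGTG, an NF-kappaB motif, or the core of an interferon-stimulated response element, on either strand.

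The coding sequences part most clearly at 1 exon, where Raet1e has 12 bases with no counterpart in Raet1d. This stretch is shown because a read across it belongs to 1 of the genes, and the 12 bases are in capitals (GRCm38.p6, plus strand).
Raet1e, chr10:22180640-22180711: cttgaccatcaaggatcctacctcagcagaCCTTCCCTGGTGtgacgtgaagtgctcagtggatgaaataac
Raet1d, chr10:22370888-22370947: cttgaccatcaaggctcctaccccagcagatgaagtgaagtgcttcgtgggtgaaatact
Such stretches are the minority. Of 1375 windows of 65 bases, the read length, in the exons of Raet1e, 25.2% had an exact second match in the genome. Within the cluster region alone, 70.1% had a match with at most 2 mismatches. For Raet1d these shares were 27.1% and 65.9%, for H60b 0% and 16.9%. The authors discarded reads of low mapping quality, so part of the RAE-1 reads was lost and part could be credited to the wrong copy.

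Raet1e, a RAE-1 ligand gene, had 0 counts in JB81, JB91, and JB97. It had 367 counts in JB84, 154 in JB87, and 553 in JB93, which are 23.1, 11.9, and 25.02 CPM. The groups did not overlap, and 19.9% of the 12376 genes tested also had every BNC line below every NC line. Genes with at most 3 counts in each BNC line and no overlap were 1.03% of all. Against a floor of 3 counts per library, the BNC lines held Raet1e at a level at least 151-fold lower, and between 132-fold and 181-fold with 1 line left out. The column heads carry 1 number prefix for JB81, JB84, and JB87 and another for JB91, JB93, and JB97, and under each prefix Raet1e was at 0 in the BNC lines and present in the NC lines. Other markers moved with this difference. Of the 8 mesothelial markers 5 were below the NC lines in every BNC line, and Vim was above. The 5 leukocyte and macrophage markers summed to 40.5 CPM in JB81, 44.7 in JB91, and 5.16 in JB97, and to 3.27 to 4.47 in NC lines. Lyz2, a lysozyme gene of myeloid cells, made up 34.8 and 38.8 CPM of this in JB81 and JB91. Csf1r was at 3.26 and 3.28 CPM in these lines, 0.701 in JB97, and 0.926 or less in NC lines. Cd68 was at 2.40 to 4.12 CPM in every line, while the pan-leukocyte gene Ptprc and the macrophage gene Adgre1 had at most 1 count in any line. The part of these markers in the difference was not tested. H60b, which shares the first exon of Raet1e, kept 49, 52, and 23 counts in the same 3 BNC lines.

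Raet1d, the near copy, had 0 counts in JB81, 0 in JB91, and 1 in JB97. JB84 had 51 counts, JB87 26, and JB93 71, or 3.21, 2.01, and 3.21 CPM. Both RAE-1 genes were thus at or next to 0 in the same 3 lines. Summed over lines, the ratio of NC to BNC lines was 198 with an exact 95% counting interval of 35.1 to 7888. It was 128 without JB81 or without JB91, and without JB97 no count was left in the BNC lines. Because the 2 genes are near copies, misplaced Raet1e reads may be part of the Raet1d counts, which was not tested.

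Ulbp1 separated the lines in another way. It stood at 2.23 CPM in JB81, 2.11 in JB91, and 34.2 in JB97, against 15.6 in JB84, 23.7 in JB87, and 15.02 in JB93. The highest and the 2 lowest lines were all BNC lines, and the groups overlapped. The log2 fold change of BNC over NC lines was -0.54 ± 1.09 (SE), and -3.05 ± 0.30 without JB97. The latter SE holds little spread between BNC lines, since the close pair JB81 and JB91 was all that remained. JB97 was thus without Raet1e but held the highest Ulbp1 level of all 15 libraries.

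H60b was low throughout and its groups overlapped. It had 2.02 CPM in JB81, 2.16 in JB91, and 1.15 in JB97, and 5.22 in JB84, 1.16 in JB87, and 4.62 in JB93. The close pair JB84 and JB93 was high, and JB87 lay at the level of JB97. The log2 fold change was -1.06 ± 0.61 (SE). H60c had 6 to 15 counts in BNC lines and 3 to 18 in NC lines, with a log2 fold change of -0.66 ± 0.64 (SE). Its groups also overlapped, and the difference was not tested.

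**Figure D1:**
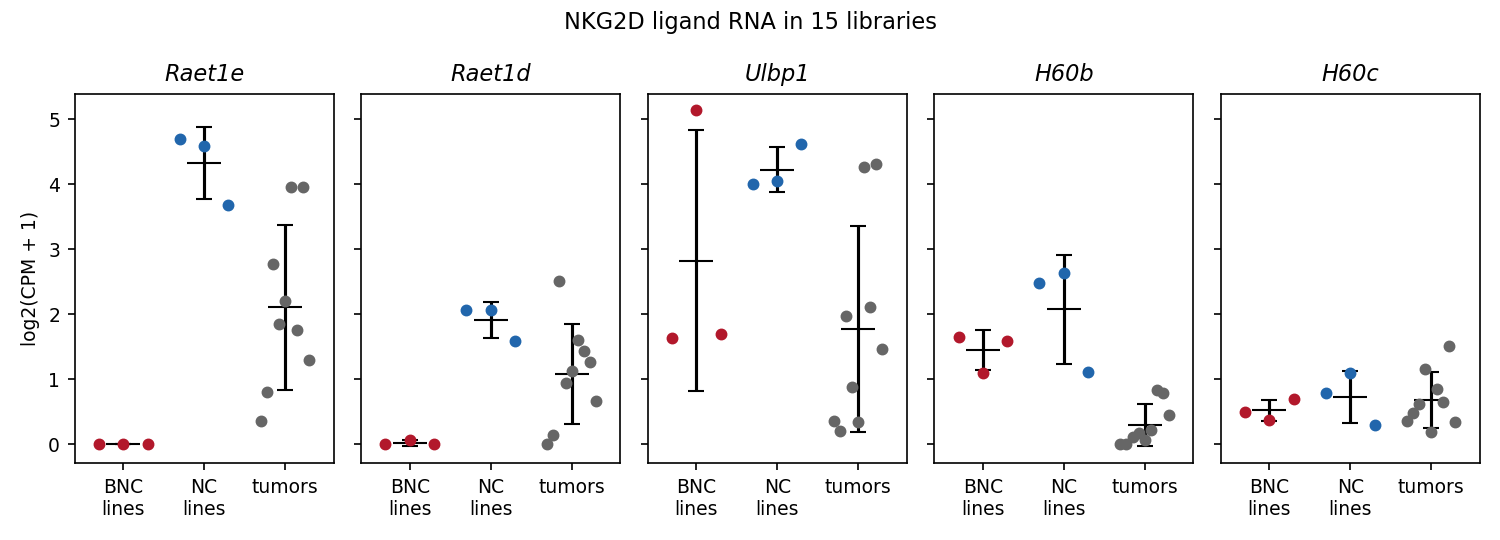
RNA of the 5 genes as log2(CPM + 1) on the y axis in BNC lines (red), NC lines (blue), and tumors (gray); points are libraries, and bars are the mean and SD over 3, 3, and 9 libraries. Raet1e and Raet1d sit at or next to 0 in all BNC lines, Ulbp1 is split within the BNC lines, and H60b is lowest in tumors.

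Levels were compared between genes per length, as CPM per kilobase (RPKM) over the exon bases that belong to 1 gene. In the NC lines Raet1e was the highest of the 5, at 13.9 RPKM in JB84, 7.14 in JB87, and 15.05 in JB93. Raet1d stood at 1.86 to 2.98 RPKM and Ulbp1 at 2.23 to 3.52 in the NC lines. The order depends on the lengths used, 6726 bases over all 5 annotated transcripts of Ulbp1 and 1663 for Raet1e. In JB87 Ulbp1 had 23.7 CPM and Raet1e 11.9. Which transcripts were expressed was not tested. In JB81 and JB91 H60b was the highest, at 1.87 and 1.996 RPKM, and in JB97 Ulbp1 was, at 5.09. H60c was at 0.402 RPKM or less in every line.

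**Figure D2:**
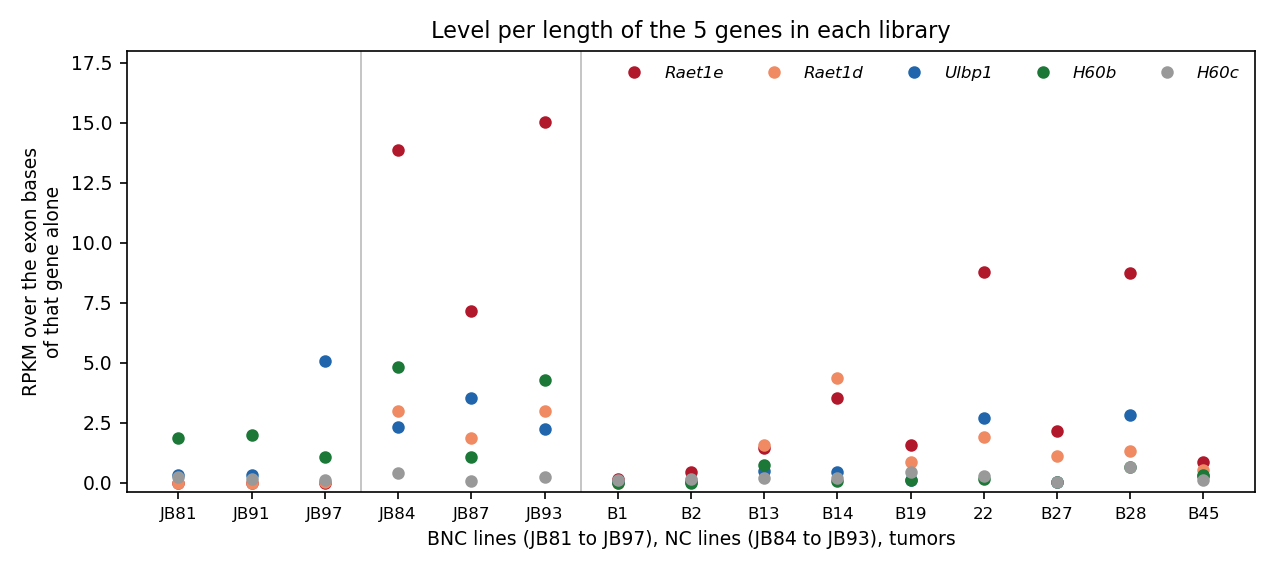
Level per length (RPKM, y axis) of the 5 genes in each of 15 libraries (x axis; BNC lines, NC lines, and tumors from left to right). Raet1e leads in the NC lines and in the tumors other than B13 and B14. In B1 Raet1e, Ulbp1, and H60c had 1 count each, so the lead there comes from the length alone. Its highest tumor levels are in 22 and B28, at 8.80 and 8.73 RPKM, and it is at 0 in the BNC lines.

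For Raet1e 2 of the 9 tumors lay within the range of the NC lines and the other 7 below it. Their Raet1e level was 0.285 CPM at the lowest, 2.62 at the median, and 14.6 at the highest. In order of level JB93 and JB84 came first, then the tumors 22 (14.6 CPM) and B28 (14.5), then JB87, then the other 7 tumors from 5.85 CPM down, and last the 3 BNC lines. The neighbors 22 and B28 differed by less than the spread among lines. The lowest tumor, B1, had 1 count. Its total count was the lowest of all, 24.7% of it fell on 1 gene, and its floor of 3 counts was 0.856 CPM, so the level there could not be told from 0.

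Raet1d was at 0, 1.18, and 4.72 CPM (lowest, median, and highest tumor), and led Raet1e per length in tumors B13 and B14. In B13 the difference was small, at 1.58 against 1.43 RPKM from 30 and 42 counts. Reads lost or misplaced between the 2 near copies were not corrected for in these levels. Ulbp1 ranged from 0.151 to 18.8 CPM with a median of 1.78. The same tumors, 22 (18.2 CPM) and B28 (18.8), held the highest Ulbp1 and the highest Raet1e. Over the 9 tumors, which share a column prefix and are all bulk tissue, Pearson's r of log2(CPM + 1) with Raet1e was 0.88 for Ulbp1, 0.72 for Raet1d, 0.63 for H60c, and 0.38 for H60b. Among 15668 genes ranked in this way they stood at 355, 1629, 2400, and 4480, so that many other genes had values as high.

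Tumors were compared with the mean of the BNC and NC lines for the 4 genes other than Raet1e. All tumor columns carry a number prefix that no line has, so that whatever this prefix stands for and the kind of sample cannot be told apart. In this comparison 39.7% of all 15675 genes tested were called (edgeR, over 2-fold at an adjusted p below 0.01), with a median log2 fold change of 0.38. H60b passed the filter on low counts only through the lines, where it is high, so its values are a description. It had 0 to 16 counts in tumors and 15 to 102 in lines. H60b was at 0, 0.131, and 0.794 CPM (lowest, median, and highest tumor) and at 1.15 to 5.22 CPM in lines. The log2 fold change was -3.20 ± 0.75 (SE). It was -2.68 against BNC and -3.73 against NC lines alone. Of the other 3 genes 0 were called (edgeR). Ulbp1 had a log2 fold change of -1.54 ± 0.98 (SE, edgeR adjusted p = 0.187) and H60c of 0.31 ± 0.56 (SE, edgeR adjusted p = 0.656). Raet1d had an unadjusted p under 0.05, as did 65.1% of all genes, and was called by DESeq2, as were 44.1% of all genes.

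For Raet1d the fitted fold depended on the BNC lines, which were next to 0. Against NC lines alone its log2 fold change was -0.96 ± 0.86 (SE, edgeR adjusted p = 0.367). Against all lines it was 2.54 ± 0.86 (SE, edgeR adjusted p = 0.0193), and without tumor B1 2.72 ± 0.78 (SE, edgeR adjusted p = 0.00895). Against BNC lines alone it was 6.05 ± 1.44 (SE), a fitted value that depends on the prior count because these lines held 1 count in all. The genes were chosen because Raet1e, of which Raet1d is a near copy, was near absent from these BNC lines. The p-values of Raet1d in fits that include these lines are therefore no independent support. The direction thus differed with the lines set against the tumors. In bulk tumors, fewer cells of a type and less RNA per cell cannot be told apart. The 5 leukocyte and macrophage markers summed to 614 to 5451 CPM in tumors and to 3.27 to 44.7 in lines, and the 11 NK and T cell markers to 12.4 to 202 and to 0.661 to 2.04. The 3 B cell markers summed to 2.37 to 148 CPM in tumors and to 1.13 or less in lines. Their part in the differences of the ligands was not tested.

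The receptor side was seen in tumors only. Klrk1, which encodes NKG2D itself, had at most 1 count in any line and 1.37 to 16.1 CPM in tumors. Its signaling adaptors Hcst (DAP10) and Tyrobp (DAP12) had 0 counts in all lines, and 1.27 to 12.8 and 70.0 to 411 CPM in tumors. They entered the fit through the tumors alone, so no test of them is given. The ligand genes were thus measured in lines without RNA of the receptor, and in tumors beside it.

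The DNA of 14 other tumor libraries was read as the log2 ratio to normal tail in bins of 20 kb, in which 0 stands for no difference. Most bins with a value at the Raet1 cluster, though not all, were unlike most of the genome in how much tumors differed from each other. At chr10:22280001-22300000, inside the annotated spans of Raet1e and H60b, the ratio ran from -0.20 to 1.20, a range wider than in 99.7% of 114213 autosomal bins. At chr10:22080001-22100000, upstream of the cluster, it ran from -3.64 to 0.04, a range wider than in 99.9%. The bin chr10:22160001-22180000, which holds 594 of the 2159 exon bases of Raet1e, ran from -0.61 to 0.20 (97.4%). In contrast chr10:22260001-22280000, also inside the spans of Raet1e and H60b, ran from -0.53 to -0.07 (61.4%). The bins of its other exons, the coding stretch shown above among them, had no value. Raet1d exons had no bin with a value. The bin at H60c, chr10:3260001-3280000, ran from -0.06 to 0.22 and was wider than 5.49% of bins.

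The tumors fell apart at 2 gaps in the bin at chr10:22280001-22300000. Of the 14, 2 had -0.20 and -0.06, 7 had 0.59 to 0.78, and 5 had 0.98 to 1.20. The column heads of B20 and B21, both among the 5, carry the same long number, so the 14 libraries may not be 14 separate animals. In the upstream bin at chr10:22080001-22100000 the same 2 tumors had -0.26 and 0.04, the 7 had -1.03 to -0.72, and the 5 had -3.64 to -2.30. The 3 sets were also apart, in the order they were made by, in the next bin at chr10:22300001-22320000, but overlapped in the other 4 bins of the cluster. Upstream they were apart in 4 of 5 bins, in the opposite order. The medians of all chromosome 10 bins lay between -0.013 and 0.001 in the 14 libraries, so by its median the chromosome was not shifted. How far the steps reach was not measured. The outermost bins read, chr10:22040001-22060000 and chr10:22460001-22480000, still ran from -1.86 to -0.11 and from -1.09 to 0.07. The grouping was made after the values were seen, and the genotypes of these tumors could not be matched.

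**Figure D3:**
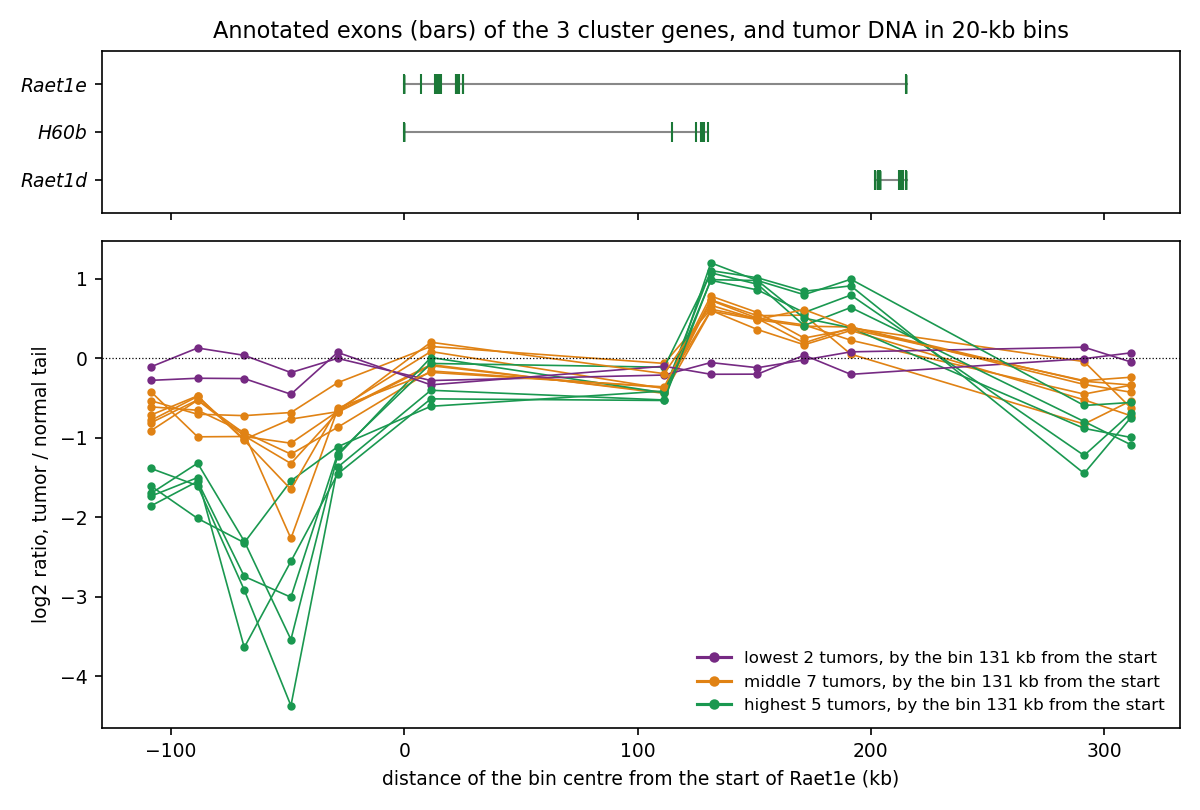
Top, annotated exons of Raet1e, H60b, and Raet1d; bottom, log2 ratio of tumor DNA to normal tail (y axis) in 20-kb bins by distance from the start of Raet1e in kb (x axis), with a line for each of 14 tumor libraries colored by its value at 131 kb. The 2 purple tumors stay near 0, while the 5 green tumors reach -4.37 upstream and 1.20 inside the cluster.

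A few tags occur in both tables, though the sources do not say that an equal tag means the same tumor. Tumor B28 had the lowest DNA ratio of the 14 at chr10:22280001-22300000 (-0.20), and its Raet1e RNA was 14.5 CPM. B14 (0.59), B19 (0.60), and B13 (0.73) had Raet1e levels of 5.85, 2.62, and 2.38 CPM. B2 had a ratio of 0.98 and a Raet1e level of 0.756 CPM, and Raet1d was at 1.41, 4.72, 0.917, 1.70, and 0.101 CPM in the order B28, B14, B19, B13, and B2. That bin was picked because it held the highest ratio, and it contains exons of H60b but none of Raet1e or Raet1d. H60b RNA was at 0.728, 0.084, 0.131, 0.794, and 0 CPM in the same order. At chr10:22160001-22180000, which contains exons of Raet1e, the ratios in that order were -0.34, -0.08, -0.16, 0.08, and 0.01. With so few tags no relation was tested. DNA of the lines was not analysed here, so that in them a difference in the DNA of the cluster and a difference in its transcription cannot be told apart.

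Few genes around the cluster had reads in lines. Within 500 kb, 22 further genes were in the table and 3 passed the filter, none of them called (edgeR, 1 at an unadjusted p under 0.05). E030030I06Rik, upstream of Raet1e at chr10:22113050-22149270, was at 0.200 to 0.248 CPM in the BNC lines, and at 3.08 in JB84, 0.386 in JB87, and 4.30 in JB93. It was low in JB87, where Raet1e was present. The pseudogene C920009B18Rik, inside the Raet1e span, had a log2 fold change of -1.70 ± 0.64 (SE, edgeR adjusted p = 0.117). Near Ulbp1, 9 of 14 genes passed the filter, and Lrp11 had the lowest p, with -2.72 ± 0.53 (SE, edgeR adjusted p = 0.0281). With the close pairs of lines summed, the edgeR adjusted p of Lrp11 was 0.356. Lrp11 was at 1.20 to 3.45 CPM in BNC and 8.02 to 15.2 in NC lines. In the other direction, Cnksr3 and Pcmt1 were above the NC lines in every BNC line, with 1.04 ± 0.30 and 0.52 ± 0.12 (SE, edgeR adjusted p = 0.0647 and 0.043). These 3 were the genes near Ulbp1 at an unadjusted p under 0.05, and 0 of the 9 were called.

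Other genes of the pathway were read from lists of 40, of which 36 were in the table. In BNC against NC lines 30 were tested and 0 were called (edgeR, same limits), against 1.10% of all genes. At an unadjusted p under 0.05 there were 14 (46.7%), against 35.6% of all genes, and DESeq2 called 6, all lower in BNC, or 20.0%, against 14.9% of all genes with that tool. The count rose to 4 without JB97 (13.3%, against 7.57% of all genes) and to 8 without JB87 (26.7%, against 19.7%). The median log2 fold change was -0.11, beside -0.0023 over all genes.

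Of the 30 genes 2 passed at an adjusted p under 0.05 and over 2-fold, both of them ligands of other NK cell receptors. H2-K1 and H2-D1, classical MHC class I genes that restrain NK cells, were at 21.9, 24.05, and 37.2 and at 28.5, 28.6, and 73.3 CPM in JB81, JB91, and JB97. In JB84, JB87, and JB93 they were at 178, 96.8, and 191 and at 251, 135, and 283 CPM. Neither overlapped between groups, and the log2 fold changes were -2.52 ± 0.34 and -2.39 ± 0.49 (SE, edgeR adjusted p = 0.0137 and 0.0312). At an adjusted p under 0.05 and over 2-fold, 11.6% of all genes passed in this fit. It takes the close pairs JB81 and JB91, and JB84 and JB93, as separate lines. With each pair summed the log2 fold changes were -2.27 ± 0.47 and -2.04 ± 0.61 (SE, edgeR adjusted p = 0.293 and 0.336). H2-T23, which encodes the NKG2A ligand Qa-1, was at 35.0 and 37.1 CPM in JB84 and JB93 and at 1.35 to 3.86 in the other 4 lines, JB87 included. Pvr, a ligand of DNAM-1, had -1.38 ± 0.40 (SE, edgeR adjusted p = 0.0678).

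Genes that act on ligand at the surface were tested for 7 of 9. The sheddases Adam10 and Adam17 had log2 fold changes of 0.17 ± 0.26 and 0.43 ± 0.18 (SE). Adam9, of the same family, had -0.96 ± 0.22 (SE, edgeR adjusted p = 0.0404) and was lower in every BNC line. The metalloprotease Mmp14 was higher in every BNC line, at 1.08 ± 0.43 (SE, edgeR adjusted p = 0.132). Timp3, an inhibitor of metalloproteases, was at 359 to 427 CPM in BNC and 704 to 758 in NC lines (-0.96 ± 0.14, edgeR adjusted p = 0.0152), under the 2-fold limit. With the close pairs of lines summed, the edgeR adjusted p was 0.481 for Adam9 and 0.360 for Timp3. Marchf9, a ubiquitin ligase of the membrane that acts on MULT1, was at 17.4 and 18.9 CPM in JB84 and JB93 and at 0.954 to 2.10 in the other lines, with -3.09 ± 0.84 (SE, edgeR adjusted p = 0.0593).

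Among 15 genes that can induce ligands all were tested. Sting1, which relays the sensing of DNA in the cytosol, was at 1.53, 1.62, and 13.6 CPM in JB81, JB91, and JB97, and at 26.99, 54.9, and 30.2 in JB84, JB87, and JB93. The groups did not overlap, at -2.79 ± 0.95 (SE, edgeR adjusted p = 0.0946). E2f1, Chek1, and Hsf1 had values above 0 (1.05 ± 0.43, 1.24 ± 0.50, and 0.47 ± 0.16, SE), with edgeR adjusted p of 0.139, 0.137, and 0.100. Atm, Atr, Trp53, and Myc lay between -0.09 and 0.32. The 10 interferon response genes summed to 11.1 to 13.1 CPM in BNC lines and to 978 and 1013 in JB84 and JB93, but to 31.4 in JB87, which had Raet1e at 11.9 CPM. Their part in the Raet1e difference was not tested.

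**Figure D4:**
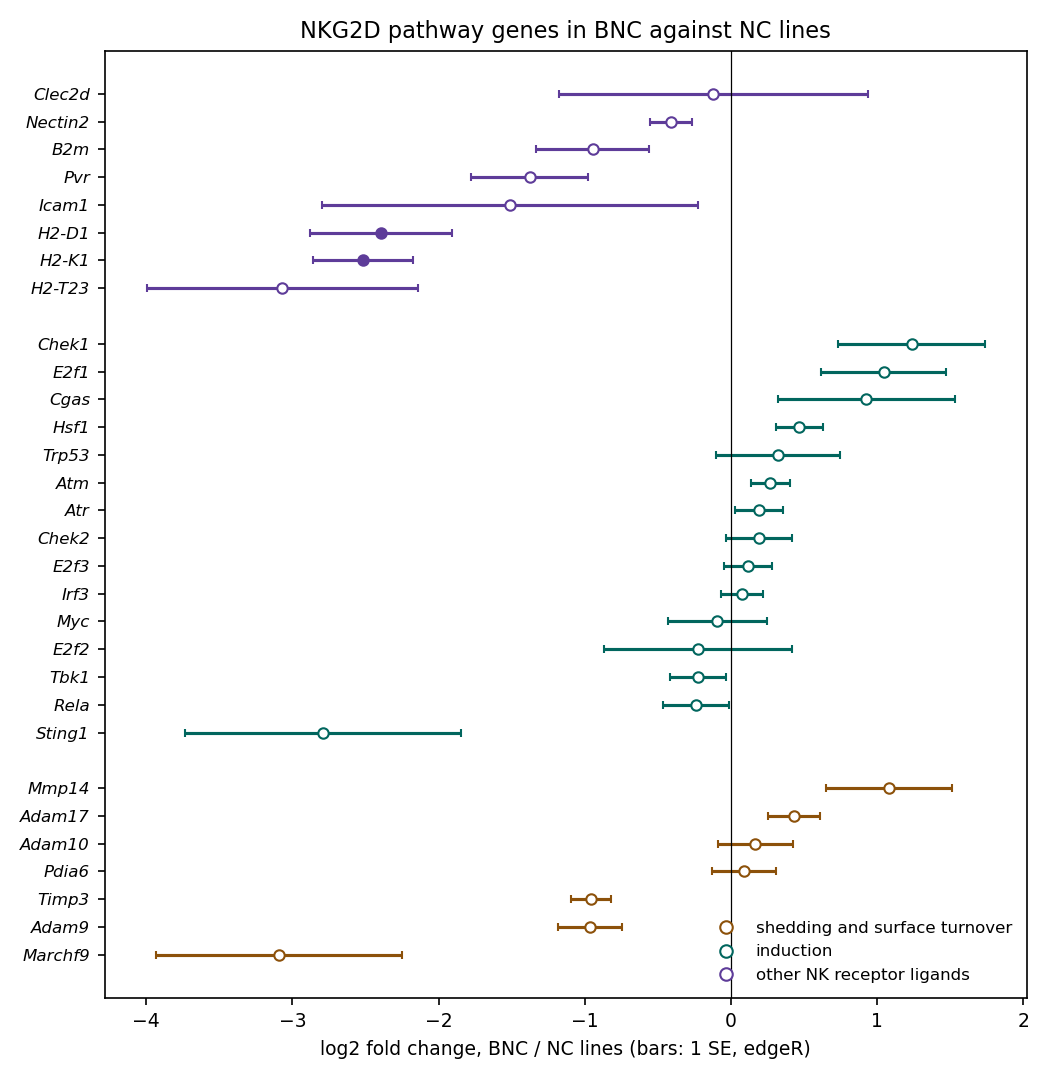
log2 fold change of BNC over NC lines (x axis, with SE) for the 30 NKG2D pathway genes tested, grouped by list; filled points had an edgeR adjusted p under 0.05 and more than 2-fold change. H2-K1 and H2-D1 are the filled points, and Sting1 and Marchf9 stand far to the left with wide errors.

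In tumors against lines 36 pathway genes were tested and 20 (55.6%) were called, 13 higher and 7 lower in tumors, against 39.7% of all genes (28.2% higher and 11.5% lower). Of the 13, Klrk1, Hcst, Tyrobp, Mmp9, and Cd48 had at most 3 counts in any line and entered through the tumors alone. The ligands of other NK receptors gave 7 of 9 higher, H2-K1 among them at 394 to 2045 CPM in tumors (3.83 ± 0.50, SE, edgeR adjusted p = 2.47e-05). The inducing genes gave 2 higher and 6 lower of 15, with Atm at 2.92 to 12.4 CPM in tumors and 60.3 to 85.2 in lines (-3.25 ± 0.33, SE, edgeR adjusted p = 2.24e-06). Sting1 was higher in tumors, at 35.5 to 127 CPM (2.34 ± 0.48, SE, edgeR adjusted p = 0.000783), though not against NC lines alone (0.96, adjusted p = 0.183). The leukocyte markers given above moved with this comparison.

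The genes whose level followed Raet1e most closely over all 15 libraries were ranked by Pearson's r of log2(CPM + 1) among 15670 genes. The first 5 were Gm12606, a long noncoding RNA at chr4:89235699-89273403 (0.94), B3gnt3, a glycosyltransferase gene (0.93), C77080 (0.93), Tnfrsf22, a decoy receptor gene (0.91), and Dpysl3 (0.91). Gm12606 was at 0, 0, and 0.701 CPM in JB81, JB91, and JB97, at 106, 70.7, and 105 in JB84, JB87, and JB93, and at 6.85 to 108 in tumors. Raet1d had an r of 0.88 and would have ranked at 18, while Ulbp1 (0.55), H60c (0.50), and H60b (0.31) ranked far lower. The libraries share column prefixes, the lines include the close pairs, and tumors differ from lines in most respects, so these values describe the 15 libraries only.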

How the data were processed

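Members, gene lists, and tests were chosen with earlier results of these data known. RNA of 6 lines and 9 tumors was analysed from counts that the authors deposited, whole numbers of reads per Ensembl gene. The authors mapped single-end reads of 65 bases to mm10 with TopHat2 2.0.12 and counted them with HTSeq-count after removing nonprimary alignments and those of low mapping quality. The strand setting is not given in the sources used here. The authors deposited tumor DNA as log2 ratios to normal tail in 20-kb bins, made with BWA 7.10 and an adapted CopywriteR, corrected for GC content and mappability. The deposited DNA values are handled as a score, since the authors coded empty bins by a large negative number, and coded bins were left out.

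Line columns were assigned by line names in the supplementary table of the study; the other RNA columns, and all DNA columns, are tumors by elimination, with genotype unknown. The labels do not say whether replicates came from separate animals, so p-values measure the spread between these samples. Numbers of replicates in the lines did not pair them (correlation of deviations from group means -0.094 to 0.128).

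Tests were run in edgeR 4.0.16 (R 4.3.3): filterByExpr (minimum count 10), TMM scaling, and the quasi-likelihood test with Benjamini-Hochberg adjustment, called at an adjusted p under 0.01 and more than 2-fold, the limit of the study. An SE is the log2 fold change divided by the square root of F. CPM are scaled by TMM over 15 libraries. DESeq2 1.42.0, which the authors used, was an alternative. Folds against groups at 0 are bounds against 3 counts per library, 0.124 to 0.231 CPM in lines and 0.126 to 0.856 in tumors. Intervals and floors cover counting error only. The script was tested on simulated data. There the edgeR test called 30% of 4-fold and 86% of 16-fold changes in lines, and 51% and 90% in tumors against lines. A gene that was not called may therefore still differ. Named genes were the members, the listed pathway, marker, and targeted genes with values of note, the 5 genes most like Raet1e, and genes within 500 kb. E030030I06Rik, C920009B18Rik, Lrp11, Cnksr3, and Pcmt1 were singled out among the latter after their values were seen. Symbols were found for 98.5% of identifiers, and gene positions are GENCODE M21. Of the listed relatives Raet1a, Raet1b, Raet1c, and H60a, none was analysed here. Chromatin profiles were not used. No column of per-sample values was left over.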

Additional observations from a re-analysis of the deposited data

Results flagged for a closer look

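Raet1d in tumor B14 was set apart because its level of 4.72 CPM lay far above the next of the 9 tumors, with a gap of 0.564 of the whole range against a limit of 0.493 (Dixon's test, 95%). In this tumor Raet1d had 112 counts and Raet1e 139. The gap was taken on CPM without a log, and a gap on a log scale was not tested. Chance sets apart about 1 in 20 groups if values are normally distributed, which was not tested for these CPM. The highest and the lowest tumor of 5 genes were looked at, 10 gaps in all. No other member had a tumor set apart in this way.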

How the results depend on the processing

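Raet1e stayed between 132-fold and 181-fold lower at least under every alternative run (scaling, filters, each line left out, and close pairs summed), and the ratio of Raet1d was 223 without TMM and 128 to 219 with 1 line left out, with no value without JB97. The log2 fold change of Ulbp1 stayed below 0 but ranged from -3.05 to -0.028 with 1 line left out and was -1.88 under a replicate block with JB97 numbered 3. H60b ranged from -1.46 to -0.72 with 1 line left out and was -0.37 under the replicate block with JB97 numbered 2, and H60c ranged from -1.03 to -0.15. H60c had no value where 10 counts in every sample were required. The replicate block, whose numbers do not pair the lines, left 0 pathway genes called, as did the main test; all genes called fell from 136 to 0, and to 1 with the column prefix as a covariate and 0 with close pairs summed. Pathway genes called in lines were 2 at an adjusted p under 0.05, 6 with DESeq2, and 0 to 8 with 1 line left out. In tumors H60b is a description, as said above, and in the main test none of Raet1d, Ulbp1, and H60c was called. Raet1d was called at an adjusted p under 0.05, with DESeq2, and against BNC lines alone. It was also called without tumor B1, a setting chosen after seeing the data. All these fits include BNC lines, and Raet1d was not called with any line left out. Against NC lines alone Raet1d turned to -0.96 and H60c to -0.015. No member had 10 counts in every library, and under that filter 13 pathway genes were called in place of 20. Genes called over the table moved from 136 to 1436 at an adjusted p under 0.05, 1846 with DESeq2, 83 with 10 counts in every sample, and 0 to 2574 with 1 line left out (984 without JB97 and 2574 without JB87), and in tumors from 6220 to 2796 with that filter and to 4062 against NC lines alone. Without TMM the median log2 fold change of all genes moved to -0.14 in lines and to 0.27 in tumors. The median DNA ratio at the Raet1 cluster was 0.28, and -0.33 with bins within 100 kb. Of the 5 genes most like Raet1e, 2 stayed among the first 5 by Spearman's rho, 0 in the 6 lines alone, and 0 in the 9 tumors alone. The causes of these shifts were not tested. The other values under alternatives kept direction and call except 2 weaker and 23 stronger ones among single genes.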
